A study of Bos taurus with 16 samples.

Results

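The genes described here carry out antigen presentation in cattle: the major histocompatibility complex (MHC) class II genes BOLA-DRA, BOLA-DMA, BOLA-DMB and BOLA-DOB with CD74 and CIITA, and the class I genes B2M, TAP1, TAP2 and TAPBP. They were measured in blood leucocytes (circulating WBC) and in the endometrium, the lining of the uterus, of healthy dairy cows and of cows with subclinical endometritis (SCE), an inflammation without outward signs. Their probes were taken as every non-control probe of the array whose gene name is 1 of these 10 symbols, ignoring letter case. TAP1 and TAP2 are the peptide transporters and not the antimicrobial peptide TAP. Of the 10 genes, 8 had probes under their own symbol, with 24 probes among the 46615 probes and 26552 gene names of the array. CD74 had 5 probes, B2M had 4, BOLA-DRA, BOLA-DMB, TAP1 and TAP2 had 3 each, BOLA-DOB had 2 and TAPBP had 1. BOLA-DMA and CIITA had none under their symbols. The array names its DM alpha chain probes HLA-DMA (2 probes) and describes a transcript named ENSBTAT00000027518 (2 probes) as the class II transactivator, so these are described beside the members and counted apart from them.

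Class II molecules present peptides from the endosomes of B cells, dendritic cells, monocytes and macrophages to helper T cells. Their chains are assembled with the invariant chain CD74, DM exchanges its remnant for a peptide, DO restrains DM, and CIITA switches the set of genes on. Class I molecules are found on nearly all nucleated cells and present peptides made in the cytosol, which TAP1 and TAP2 pump into the endoplasmic reticulum, where tapasin (TAPBP) loads them onto heavy chains bound to beta-2-microglobulin (B2M).

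The study asked whether inflammation of the endometrium is mirrored in circulating leucocytes. There were 4 groups of 4 arrays: WBC of healthy cows, WBC of SCE cows, endometrium of healthy cows and endometrium of SCE cows. All samples were taken 45 to 55 days post-partum, and the same 4 healthy cows (841, 850, 877, 883) and 4 SCE cows (718, 833, 836, 846) gave both tissues. The cows were multiparous Holstein-Friesians without clinical signs, and SCE was assigned by histology. Both groups held cows in follicular and in luteal phase, with a larger share of luteal cows in the SCE group. The age and phase of each cow are not given in the labels, so phase could not enter a comparison. WBC RNA came from whole blood stabilized at collection and endometrial RNA from whole transcervical biopsies, so every value is an average over the cell types of a sample.

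The median raw signal of an array ranged from 115.5 to 374, and 64.7 to 79.8% of its spots were well above background. The endometrial array of SCE cow 833 had the lowest values of both. Its median correlation with the other endometrial arrays was 0.940, against 0.973 to 0.979 for those arrays, and its endothelium marker list stood at a mean log2 intensity of 13.58, against 10.67 to 11.72 in the other 7 cows. For the brightest probes of members measured above background, the tissue differences in SCE cows and endometrial SCE differences are also given without this cow. So are the tissue differences of HLA-DMA and ENSBTAT00000027518. Most other values that involve this array, among them those of lists and of other genes, are given with it only. The WBC array of cow 833 stood apart as well, with a median raw signal of 258.5, against 133 to 180.5 in the other WBC arrays. Of its spots, 75.8% were well above background, against 66.3 to 71.9%. Its median correlation with the other WBC arrays was 0.972, against 0.984 to 0.989 for those arrays. The 8 arrays of each tissue shared a slide of their own, so slide and tissue cannot be told apart. The tissue labels matched LUM and COL1A2 (stroma), not well above background in any WBC array and well above it in every endometrial array. They also matched the neutrophil receptor CXCR2, not well above background in the endometrium of healthy cows and at least 172-fold higher in their WBC. Not every stroma and epithelium marker was higher in the endometrium, as given below. Of the 24 probes, 21 were well above background on all 16 arrays, and none was saturated. The exceptions were both BOLA-DOB probes and the third BOLA-DMB probe, in the endometrium.

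Each gene is represented by its brightest probe (probe 1), with the other probes as checks. To show which stretches of the transcripts carry the results, 9 probes for the class II path and the transporters are printed below, chosen among those with at least 1 reading frame without a stop codon. They are written 5′ to 3′ in lower case, with no part singled out. Positions are those of the scanner files on build HGSC Btau_3.1.
BOLA-DRA, probe 3: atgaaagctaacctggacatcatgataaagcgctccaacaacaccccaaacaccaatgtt
CD74, probe 4: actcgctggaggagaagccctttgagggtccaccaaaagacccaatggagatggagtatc
CD74, probe 5: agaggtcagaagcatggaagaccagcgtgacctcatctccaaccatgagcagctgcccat
BOLA-DMB, probe 2: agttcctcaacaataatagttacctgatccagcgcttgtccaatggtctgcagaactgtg
BOLA-DOB, probe 2: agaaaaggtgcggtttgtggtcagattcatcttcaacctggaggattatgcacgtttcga
HLA-DMA, probe 1: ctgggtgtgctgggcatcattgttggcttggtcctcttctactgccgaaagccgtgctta
ENSBTAT00000027518, probe 2: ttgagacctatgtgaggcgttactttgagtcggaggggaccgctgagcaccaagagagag
TAP1, probe 1: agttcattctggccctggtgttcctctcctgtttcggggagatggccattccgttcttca
TAP2, probe 2: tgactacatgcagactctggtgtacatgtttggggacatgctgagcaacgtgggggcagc

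The mapped probes of this set lie on the minus strand, except that of ENSBTAT00000027518 (chr25:10631770-10631829), on the plus strand. BOLA-DRA probe 3 maps to chr23:26441386-26441877, a span of 492 bases for a probe of 60 bases. CD74 probe 4 (chr7:61217142-61218860), TAP1 probe 1 (chr23:7391834-7392322) and TAP2 probe 2 (chr23:7370095-7372106) also span more than their length. CD74 probe 5 (chr7:61223804-61223863), BOLA-DMB probe 2 (chr23:7458483-7458542) and HLA-DMA probe 1 (chr23:7471637-7471696) map without a gap, and no position was used for BOLA-DOB. CD74 probes 1 and 2 share 46 bases and are no independent check of each other. In the RefSeq gene table of a later cattle assembly, BOLA-DOB, TAP2, TAP1, BOLA-DMB, BOLA-DMA, TAPBP and BOLA-DRA lie in this order on chromosome 23 with other genes among them, and CD74, B2M and CIITA are on chromosomes 7, 10 and 25. The transcripts behind the 24 probes were matched to that table: 22 carry the symbol of the array, and TAP2 probes 2 and 3 belong to LOC618733, a neighbouring gene listed apart from TAP2, so for TAP2 only probe 1 measures the gene of that name in the table.

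The class II genes were far lower in the endometrium than in circulating WBC in healthy and in SCE cows. The class I transporters and tapasin were lower by a smaller amount, which for TAP2 rests on probe 1 alone, and B2M did not pass the test. Between SCE and healthy cows no member passed the test in either tissue. All values below are log2 normalized intensities, differences are log2 differences, and a difference passed when the limma TREAT test against a fold of 1.2 gave a Benjamini-Hochberg adjusted p of at most 0.05 over all probes.

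**Figure D1:**
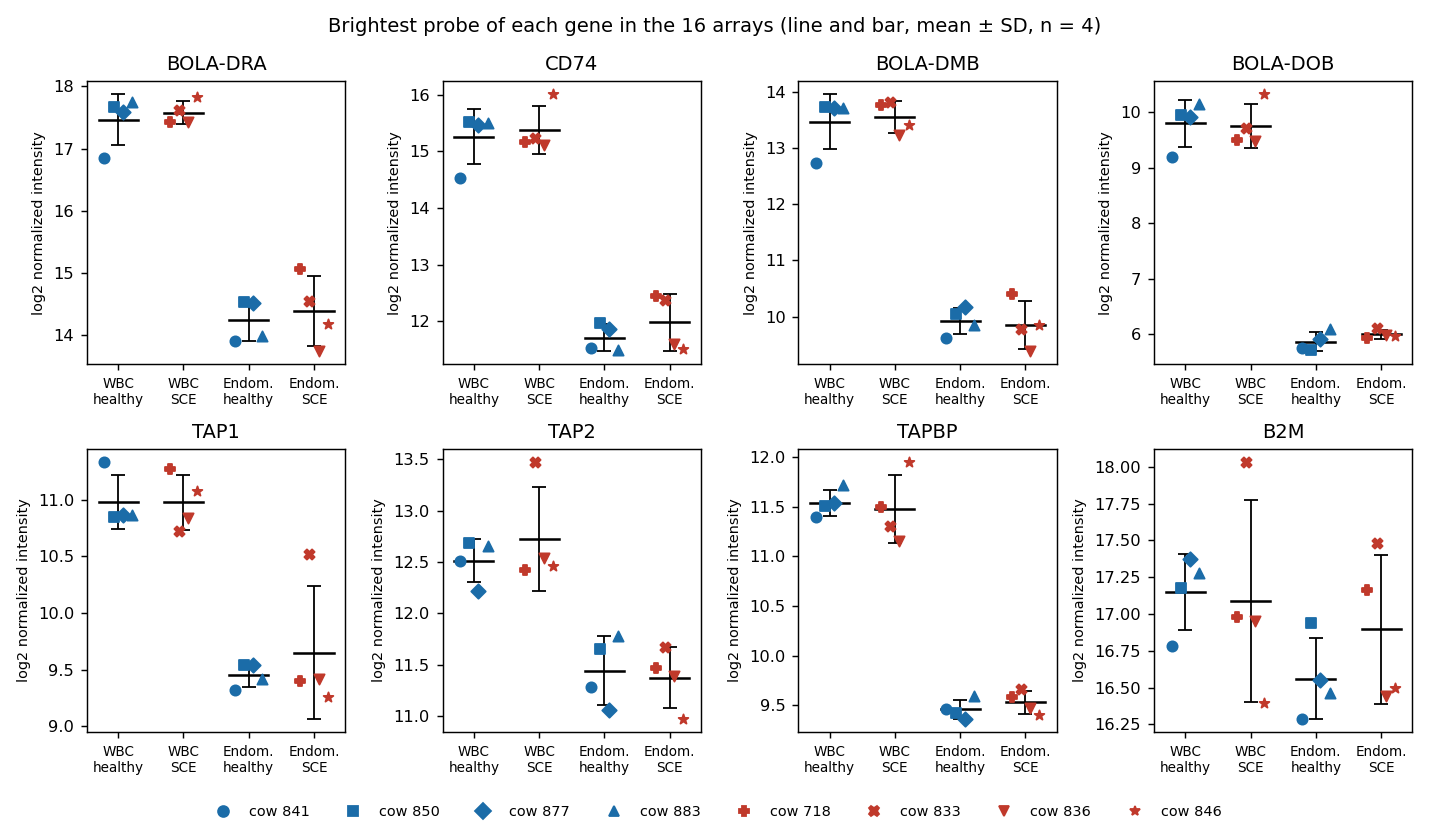
Log2 normalized intensity of the brightest probe of 8 genes in 16 arrays, 1 panel per gene with its own axis range; each symbol is 1 cow (blue healthy, red SCE), lines and bars give the group mean and SD (n = 4). The class II genes in the upper row fall by 3 to 4 log2 units from WBC to endometrium (endometrium in the BOLA-DOB panel is not above background), and within a tissue the healthy and SCE points overlap in every panel.

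CD74 is the invariant chain that escorts class II molecules to the endosome. In WBC it stood at 14.53, 15.51, 15.47 and 15.51 in healthy cows 841, 850, 877 and 883. In the WBC of SCE cows 718, 833, 836 and 846 it stood at 15.17, 15.24, 15.11 and 16.02. In the endometrium the values were 11.53, 11.97, 11.86 and 11.49 in the same healthy cows and 12.44, 12.38, 11.60 and 11.50 in the same SCE cows. Every WBC value was above every endometrial value, while healthy and SCE cows overlapped within each tissue. CD74 had an endometrium minus WBC difference of -3.55 in healthy cows (SE 0.28, a fold of 11.7, limma TREAT adjusted p = 7.06e-08) and of -3.40 in SCE cows (SE 0.28, a fold of 10.6, limma TREAT adjusted p = 1.23e-07). Its other 4 probes gave differences of -3.40 to -3.57 in healthy cows and -3.25 to -3.43 in SCE cows, and the 2 probes printed above, which start at bases 668 and 123 of the transcript, are among them.

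BOLA-DRA encodes the DR alpha chain, the partner of the polymorphic DR beta chain. In WBC it stood at 16.85, 17.67, 17.59 and 17.75 in healthy cows 841, 850, 877 and 883 and at 17.43, 17.62, 17.44 and 17.83 in SCE cows 718, 833, 836 and 846. In the endometrium it stood at 13.91, 14.53, 14.53 and 13.995 in healthy cows and 15.07, 14.55, 13.74 and 14.19 in SCE cows. The tissues did not overlap. The difference was -3.23 in healthy cows (SE 0.27, limma TREAT adjusted p = 1.20e-07) and -3.19 in SCE cows (SE 0.27, limma TREAT adjusted p = 1.43e-07), and the other 2 probes gave -3.31 to -3.67.

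BOLA-DMB encodes the beta chain of DM, the peptide exchanger. Its WBC values were 12.73, 13.72, 13.72 and 13.71 in the healthy cows and 13.77, 13.82, 13.22 and 13.41 in the SCE cows. Its endometrial values were 9.63, 10.05, 10.17 and 9.85 in the healthy cows and 10.41, 9.78, 9.38 and 9.85 in the SCE cows. The difference between tissues was -3.55 in healthy cows (SE 0.25, limma TREAT adjusted p = 1.98e-08) and -3.70 in SCE cows (SE 0.25, limma TREAT adjusted p = 1.26e-08). Probe 2, printed above, gave -3.42 and -3.57. Probe 3 gave -1.97 and -2.13, and it was well above background on only 3 healthy and 2 SCE endometrial arrays.

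BOLA-DOB encodes the beta chain of DO, which restrains DM and is best known in B cells. In WBC it was well above background on all 8 arrays, at 9.19, 9.95, 9.92 and 10.15 in the healthy cows and 9.51, 9.71, 9.49 and 10.33 in the SCE cows. In the endometrium neither probe was well above background on any of the 8 arrays, with values of 5.72 to 6.09 in healthy and 5.94 to 6.11 in SCE cows for probe 1, so these carry no order among cows. BOLA-DOB was at least 15.3-fold higher in WBC of healthy cows and at least 13.6-fold higher in WBC of SCE cows. The bound divides the WBC mean by an endometrial mean in which an array counts with its measured signal or, if larger, with the dimmest signal that was well above background on it. The limma TREAT adjusted p was 7.32e-10 and 1.38e-09. Probe 2, printed above, gave at least 5.56-fold and at least 5.08-fold.

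The probes named for the DM alpha chain and the transactivator were lower in the endometrium too. HLA-DMA stood at means of 15.71 and 15.42 in WBC of healthy and SCE cows and at 13.75 and 13.66 in their endometrium, a difference of -1.96 in healthy and -1.76 in SCE cows (SE 0.19 for both, limma TREAT adjusted p = 1.24e-06 and 4.99e-06). Its second probe gave -3.10 and -2.89, so the size of the DM alpha difference depended on the probe. The transactivator transcript ENSBTAT00000027518 stood at 9.47, 10.03, 10.05 and 10.66 in WBC of the healthy cows and 9.74, 9.71, 9.82 and 10.48 in WBC of the SCE cows. In the endometrium it stood at 6.38, 6.30, 6.38 and 6.42 in healthy cows and at 6.65, 7.60, 6.35 and 6.43 in SCE cows, where cow 833 was the high value. The endometrial signal of this probe was not well above background in healthy cow 850. The tissue difference was -3.68 in healthy cows and -3.18 in SCE cows (SE 0.28 for both, limma TREAT adjusted p = 4.00e-08 and 2.49e-07), and -3.54 in SCE cows without cow 833. Probe 2, printed above, was not well above background on any endometrial array and was at least 2.71-fold higher in WBC of healthy cows and at least 2.68-fold higher in WBC of SCE cows.

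Among the class I genes, TAPBP (tapasin, the peptide-loading chaperone) stood at 11.39, 11.50, 11.54 and 11.72 in WBC of the healthy cows and 11.50, 11.30, 11.16 and 11.95 in WBC of the SCE cows. Its endometrial values lay between 9.36 and 9.66 in all 8 cows. The tissue difference was -2.08 in healthy cows (SE 0.15, limma TREAT adjusted p = 5.99e-08) and -1.95 in SCE cows (SE 0.15, limma TREAT adjusted p = 1.46e-07).

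TAP1, a subunit of the peptide transporter, stood at 11.34, 10.85, 10.86 and 10.86 in WBC of healthy cows 841, 850, 877 and 883 and at 11.27, 10.72, 10.84 and 11.08 in WBC of SCE cows 718, 833, 836 and 846. In the endometrium it stood at 9.32, 9.54, 9.54 and 9.42 in healthy cows and at 9.40, 10.52, 9.41 and 9.26 in SCE cows. Cow 833 stood apart on this probe but not on the other 2 TAP1 probes, which read 7.77 and 7.33 there, within the range of the other SCE cows. The tissue difference was -1.52 in healthy cows (SE 0.23, limma TREAT adjusted p = 1.89e-04) and -1.33 in SCE cows (SE 0.23, limma TREAT adjusted p = 7.87e-04), and -1.71 in SCE cows without cow 833. The other probes gave -2.07 to -2.15.

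TAP2, the other transporter subunit, stood at 12.50, 12.68, 12.22 and 12.65 in WBC of the healthy cows and 12.42, 13.48, 12.54 and 12.46 in WBC of the SCE cows. In the endometrium it stood at 11.28, 11.66, 11.06 and 11.78 in healthy cows and 11.47, 11.67, 11.39 and 10.97 in SCE cows. The difference was -1.07 in healthy cows (SE 0.24, limma TREAT adjusted p = 5.94e-03) and -1.35 in SCE cows (SE 0.24, limma TREAT adjusted p = 8.02e-04). Of the probes on LOC618733, probe 2 passed, at -0.96 and -1.07, whereas probe 3 gave -0.44 and -0.51 and did not pass (limma TREAT adjusted p = 0.244 and 0.135). A transcript cluster that the array describes as TAP2, TC393051, gave -0.19 and -0.53 and did not pass either (limma TREAT adjusted p = 0.828 and 0.345). Its probe maps to chr23:7345208-7345267, next to probe 1 of TAP2 (chr23:7345518-7345577), both on the minus strand. The TAP2 call therefore rests on probe 1 alone. With quantile normalization within each tissue, TAP1 (-0.55 and -0.37) and TAP2 (-0.30 and -0.59) kept their direction and no longer passed.

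B2M, the light chain of class I molecules, stood at 16.78, 17.18, 17.37 and 17.28 in WBC of the healthy cows and 16.98, 18.03, 16.95 and 16.39 in WBC of the SCE cows. In the endometrium it stood at 16.29, 16.94, 16.55 and 16.46 in healthy cows and 17.16, 17.48, 16.44 and 16.50 in SCE cows, so the tissues overlapped. Its difference was -0.59 in healthy cows (95% interval -1.24 to 0.06) and -0.19 in SCE cows (-0.85 to 0.46), with limma TREAT adjusted p = 0.262 and 0.821. All 4 B2M probes were lower on average in the endometrium, by 0.19 to 0.92, and none passed. The direction of B2M in SCE cows turned to 0.27 with normalization within each tissue.

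Without cow 833, the tissue difference in SCE cows was -3.58 for CD74, -3.23 for BOLA-DRA and -3.59 for BOLA-DMB. It was -2.05 for TAPBP, -1.20 for TAP2, -1.92 for HLA-DMA and -0.07 for B2M. All of these but B2M passed the test, as they did with the cow, and TAP1 is given above.

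Counted over probes, 19 of 24 passed as lower in the endometrium in healthy cows and 19 of 24 in SCE cows, against 26.8% and 26.0% of all 46594 probes tested. None passed as higher, against 19.7% and 19.3%. By brightest probe, 7 of the 8 genes passed as lower in each status, against 27.7% and 25.6% of all genes, and none as higher, against 20.8% and 20.8%. Groups did not overlap, with the endometrium lower, for 20 of 24 probes in healthy cows (35.5% of all probes) and 19 of 24 in SCE cows (27.5%), and with the endometrium higher for none (24.3% and 18.4%). The median difference over the 8 genes was -2.65 in healthy and -2.57 in SCE cows, beside -0.15 and -0.16 over all probes. Normalization within each tissue moved the median over all probes to 0.36 in both statuses, with 36.9% of probes higher and 9.08% lower in healthy and 36.1% and 8.51% in SCE cows, and the 8 genes' medians to -1.98 and -1.90. Within single cows, the endometrium minus WBC difference of CD74, BOLA-DRA and BOLA-DMB ranged from -4.51 to -2.35, and that of TAP1, TAP2, TAPBP and B2M from -2.56 to 0.18.

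**Figure D2:**
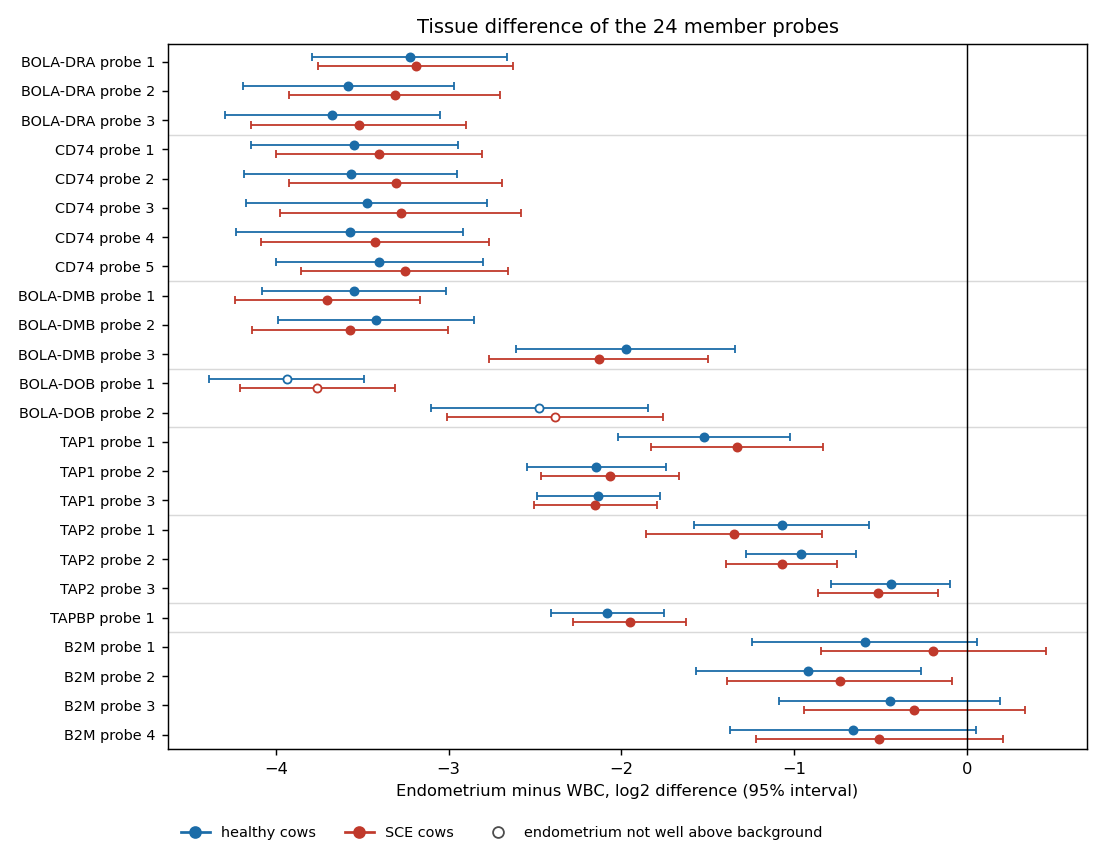
Endometrium minus WBC log2 difference of the 24 probes with 95% intervals from the 4-group limma model, in healthy (blue) and SCE cows (red). Open symbols mark the BOLA-DOB probes, not well above background on any endometrial array. BOLA-DMB probe 3, well above background on only 3 healthy and 2 SCE endometrial arrays, is drawn filled. The probes of BOLA-DRA and CD74 lie between -3.19 and -3.67, those of TAP1, TAP2 and TAPBP between -0.44 and -2.15, and those of B2M between -0.19 and -0.92. Class II and class I probes do not separate fully: BOLA-DMB probe 3 (-1.97 and -2.13) lies in the range of TAP1, TAP2 and TAPBP. BOLA-DOB probe 2 (-2.47 and -2.38) lies near it, and the other BOLA-DMB and BOLA-DOB probes lie between -3.42 and -3.94.

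Markers of the cells that present antigen were lower in the endometrium in part, and so were markers of other blood cells. In healthy and SCE cows the list medians were -2.67 and -2.52 for B cells and -2.32 and -1.99 for monocytes and macrophages. They were -0.68 and -0.84 for dendritic cells, -3.51 and -3.19 for T cells and -6.18 and -5.67 for neutrophils. All 3 B cell markers with a probe passed as lower in the endometrium in both statuses. The mean level of this list was 12.02 to 12.94 over WBC arrays and 8.82 to 9.73 over endometrial arrays. MS4A1 (CD20) was well above background on 1 of the 8 endometrial arrays, whereas CD79A and PAX5 were well above it on all 8. Of 5 monocyte and macrophage markers, CD163, CD68 and CSF1R passed as lower, and CD14 (-0.80 and -0.72) and MSR1 (0.54 and 0.57) did not pass. Of 6 dendritic cell markers, BATF3, FLT3 and LAMP3 passed as lower, and CLEC9A was not well above background on any of the 16 arrays. All 6 T cell and all 6 NK and cytotoxic cell markers passed as lower, as did 5 of 6 neutrophil, 5 of 6 erythroid and 4 of 4 platelet markers. Of 4 plasma cell markers, 2 passed as lower and SDC1, which epithelium also carries, as higher. Among tissue markers, 4 of 6 for stroma, 5 of 6 for endothelium and 3 of 6 for epithelium passed as higher. The tissue lists were not uniform: the epithelial genes CLDN4 (-1.46 and -1.33) and KRT8 (-1.67 and -1.72) and the stromal DCN (-0.60 and -0.61) passed as lower in both statuses. The epithelial KRT19 passed as lower in healthy cows (-1.47) and not in SCE cows (-1.13, limma TREAT adjusted p = 0.0518). The part of cell composition in the class II differences was not tested, and in these bulk samples fewer cells of a type and less RNA per cell cannot be told apart.

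The rest of the pathway followed in part. Of 9 other class II chains with a probe, 6 passed as lower in healthy and 6 in SCE cows and none as higher (median -3.11 and -2.88). BOLA-DQA1, a DQ alpha chain, differed by -3.68 and -3.41 and BOLA-DQB, a DQ beta chain, by -3.63 and -3.19. All 5 class I heavy chains had differences below 0, and 3 passed as lower, among them BOLA-A (-1.91 and -1.75) and the non-classical BOLA-NC1 (-1.73 and -1.55). BOLA-N (-1.23 and -1.54) and JSP.1 (-1.86 and -1.02) did not pass. All 5 immunoproteasome and activator genes had differences below 0 and 3 passed as lower, with the catalytic subunits PSMB9 (-2.96 and -2.33) and PSMB8 (-2.92 and -2.63) the largest. All 5 co-stimulation genes passed as lower, with CD40, the receptor for T cell help, at -4.04 and -3.89 and CD80 at least 5.11-fold and 4.58-fold higher in WBC, since CD80 was not well above background in the endometrium.

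Of the other lists, all but interferon gamma signalling were mixed. Of 7 class II transcription factors, NFYB passed as higher in the endometrium (1.09 in healthy cows, 1.0 in SCE cows), while CREB1 (-1.55 and -1.59) and the RFX complex subunit RFXANK (-0.70 and -0.70) passed as lower. Of 10 lysosomal proteases and the thiol reductase, CTSL2 was at least 315-fold higher in the endometrium of healthy cows and 7.62 higher on the log2 scale in SCE cows, and CTSL1 at least 3.82-fold and 3.27-fold higher. The thiol reductase IFI30, which opens disulphide bonds of antigens in the lysosome, was lower (-1.64 and -2.13), as was the protease CTSH (-1.54 and -1.56). In class I peptide loading, the chaperone calnexin (CANX, 2.93 and 2.65) and the disulphide isomerase PDIA3 (1.23 and 1.02) were higher and the peptide-trimming ERAP2 (-2.72 and -2.55) and tapasin-related TAPBPL (-1.56 and -1.41) lower. Of 10 interferon gamma signalling genes, 6 in healthy and 7 in SCE cows passed as lower and none passed as higher, and IRF2 (-2.57 and -2.23) and IRF8 (-1.98 and -2.24) were the lowest, by the mean of both statuses, while IFNG itself was not well above background on any array.

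The comparison of SCE with healthy cows used the 8 arrays of a tissue. In the endometrium, CD74 was on average 0.27 higher in SCE cows (SE 0.25, 95% interval -0.31 to 0.85, limma TREAT adjusted p = 1, exact two-sided permutation p = 0.314). B2M differed by 0.33 (SE 0.26, 95% interval -0.27 to 0.94, limma TREAT adjusted p = 1, exact two-sided permutation p = 0.286). BOLA-DRA differed by 0.15 (-0.52 to 0.82), BOLA-DMB by -0.07 (-0.59 to 0.45), TAP1 by 0.19 (-0.43 to 0.81), TAP2 by -0.07 (-0.55 to 0.42) and TAPBP by 0.07 (-0.19 to 0.34). In CD74 and B2M, SCE cows 718 and 833 were the 2 highest of the 8 cows, and SCE cows 836 and 846 were in the range of the healthy cows. Without cow 833 the difference was 0.14 for both CD74 and B2M, 0.09 for BOLA-DRA, -0.04 for BOLA-DMB, -0.10 for TAP1, -0.17 for TAP2 and 0.03 for TAPBP. Without cow 718 it was 0.12 for CD74, 0.25 for B2M, -0.08 for BOLA-DRA and 0.28 for TAP1, so that of BOLA-DRA turned to the other sign.

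In WBC, the largest difference of a brightest probe was that of TAP2, at 0.21 (95% interval -0.32 to 0.74), where cow 833 was the highest. Without cow 833 it was -0.04. CD74 differed by 0.13 (-0.49 to 0.74), BOLA-DRA by 0.11 (-0.35 to 0.58), BOLA-DMB by 0.09 (-0.47 to 0.64), BOLA-DOB by -0.04 (-0.60 to 0.52), TAPBP by -0.06 (-0.46 to 0.34), B2M by -0.06 (-0.75 to 0.62) and TAP1 by 0.00 (-0.38 to 0.38). Without healthy cow 841, the differences of CD74 (-0.11), BOLA-DRA (-0.09) and BOLA-DMB (-0.16) turned to the other sign, and BOLA-DOB stood at -0.25. The 95% intervals lay within 1 log2 unit of 0, a 2-fold difference, for the 8 brightest probes in WBC and for 7 in the endometrium, where BOLA-DOB was not measured above background. Among the other probes the intervals were wider, reaching 1.06 for CD74 probe 3 in the endometrium and, in WBC, 1.03 for BOLA-DMB probe 3 and -1.08 for BOLA-DOB probe 2.

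None of the 24 probes passed limma TREAT after adjustment in the endometrium or in WBC, as 0 of all probes did. The unadjusted limma TREAT p was above 0.05 for every member probe, against 0.256% of all probes higher and 0.195% lower in the endometrium and 0.0816% and 0.0408% in WBC. For none of the 24 probes were the groups separate, against 0.739% of probes higher and 0.947% lower in the endometrium and 0.599% and 0.740% in WBC. In the endometrium 18 of the 24 probes, counting BOLA-DOB, had a difference above 0 (49.0% of all probes), with a median of 0.16 beside -0.0047 over all probes. In WBC 16 of 24 had one (48.1% of all probes). These counts take each probe of a gene separately. By brightest probe, 6 of 8 genes were above 0 in the endometrium, with a median of 0.14, and 4 of 8 in WBC. The endometrial count was 5 of 8 without cow 833 (median 0.06) and 5 of 8 without cow 718 (median 0.09). The exact test on 4 against 4 cows cannot give a p below 0.0286, and an adjusted p above the threshold does not show that a member was equal in both groups. The difference of the SCE effect between the tissues passed for no probe. For endometrium minus WBC, CD74 gave 0.14 (95% interval -0.70 to 0.99) and B2M 0.40 (-0.53 to 1.32). All 24 probes had limma TREAT adjusted p = 1 and no unadjusted call (0.245% and 0.251% of all probes higher and lower). The median over the 8 genes by brightest probe, counting BOLA-DOB, was 0.14, with 6 above 0. Without cow 833 this median was -0.02, with 3 above 0.

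**Figure D3:**
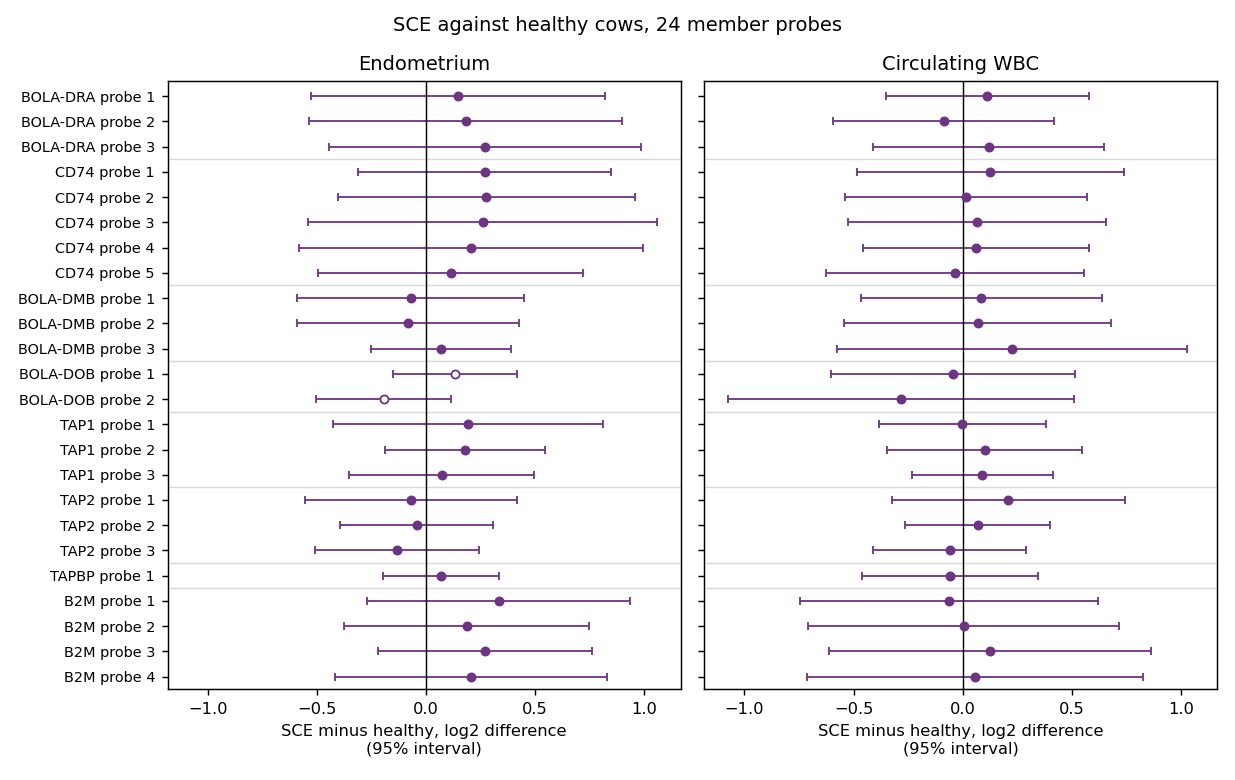
SCE minus healthy log2 difference of the 24 probes in endometrium (left) and circulating WBC (right) with 95% intervals from limma fits on 8 arrays each. Open symbols mark the BOLA-DOB probes in the endometrium, not well above background on any array there. BOLA-DMB probe 3, well above background on only 3 healthy and 2 SCE endometrial arrays, is drawn filled. Every interval crosses 0, and those of CD74 in the endometrium reach from -0.58 to 1.06 over its 5 probes.

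The pathway lists gave the same picture between SCE and healthy cows: no gene of the 8 lists of related genes passed, with or without adjustment, in either tissue. Their median differences in the endometrium ranged from -0.24 for interferon gamma signalling (10 genes) to 0.18 for the other class II chains (9 genes). Of the cell type markers, only CSF1R, the receptor of macrophages for their growth factor, passed limma TREAT without adjustment, and it did not pass with adjustment. It did so in WBC, where it was 0.64 higher in SCE cows (SE 0.17). Its list did not move as 1: of the 5 monocyte and macrophage markers, 3 were above 0 in WBC. Their differences ranged from -0.37 to 0.64, with a median of 0.18.

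Some cows stood at the end of the range on many class II probes. Healthy cow 841 was the lowest of the 8 cows in WBC on all 13 probes of BOLA-DRA, CD74, BOLA-DMB and BOLA-DOB, with a median gap of -0.80 to the median of the other cows. For the class I genes the median gap of cow 841 was smaller, at -0.22, and was still the lowest of the 8 cows. Cow 841 was the lowest on 1 of their 11 probes and the highest on 1, which was TAP1 probe 1. SCE cow 846 was the highest on 8 of the 13 class II probes. The related class II genes followed in part. Cow 841 was the lowest on probe 2 of HLA-DMA (10.515) and on probe 1 of ENSBTAT00000027518 (9.47). Probe 1 of HLA-DMA was lowest in cow 833 (15.08) and probe 2 of ENSBTAT00000027518 in cow 850 (6.69). The list of other class II chains stood in cow 841 at 11.57, within the 11.52 to 11.98 of the other cows. In the WBC of cow 841 the monocyte and macrophage marker list stood at 10.33, against 10.49 to 10.74 in the other cows, and the lysosomal protease and thiol reductase list at 12.34, against 12.58 to 12.98. Its B cell list, at 12.30, lay within the 12.02 to 12.94 of the others, and its dendritic cell list, at 8.44, within 8.33 to 8.66. In cow 846 the B cell list stood at 12.94, against 12.02 to 12.68 in the other cows, and the monocyte and macrophage list at 10.74, against 10.33 to 10.72. The part of these cell types in the low and high class II values was not tested.

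In the endometrium, over the 11 class II probes without BOLA-DOB, cow 841 was the lowest on 0, SCE cow 718 was the highest on 6 and SCE cow 833 on 4. Cow 718 also had the highest endometrial levels of several cell lists. Its plasma cell list stood at 10.86, against 8.86 to 9.84 in the other cows, and its T cell list at 9.07, against 8.35 to 8.64. Its monocyte and macrophage list stood above the 8.24 to 9.47 of the other cows, at 9.81. In cow 833 the B cell list stood at 9.73, against 8.82 to 9.09, and the neutrophil list at 7.88, against 7.04 to 7.62. The erythroid list stood at 8.39, against 7.65 to 7.86, and the platelet list at 8.07, against 7.67 to 7.98. The NK and cytotoxic cell list stood at 8.30, against 7.7 to 8.25, and the stroma list at 12.92, against 13.53 to 14.56. Their part in the endometrial values of these cows was not tested.

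Among the class I genes in WBC, SCE cow 833 was the highest on 7 of 11 probes, including all 4 of B2M. There B2M probe 1 read 18.03, beside 16.39 to 17.37 in the other cows. The WBC array of cow 833 also stood apart in raw signal and in correlation with the other WBC arrays, as given above. The part of this in its class I values was not tested.

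**Figure D4:**
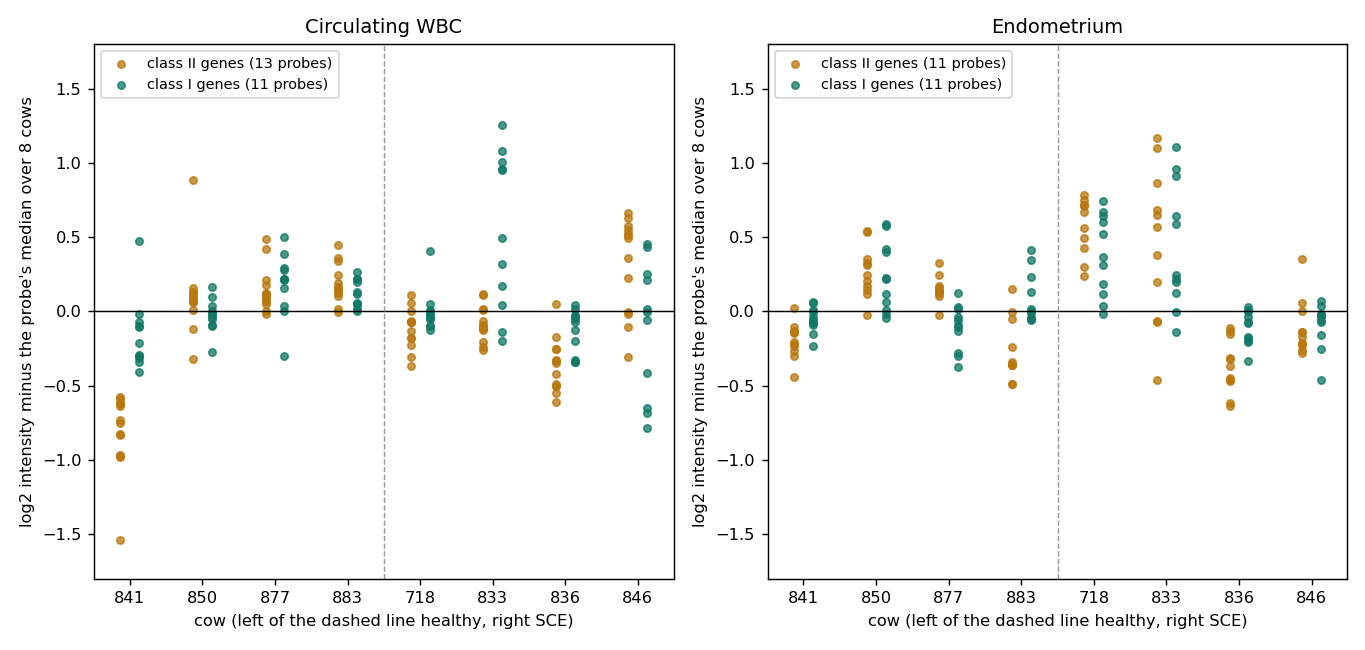
Log2 intensity of each probe minus its median over the 8 cows, by cow, in circulating WBC (left) and endometrium (right, without the 2 BOLA-DOB probes), for class II genes (orange) and class I genes (green); each point is 1 probe. In WBC each of the 13 class II probes was lowest in cow 841, and 1 of its 11 class I probes was.

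Whether cows that are high for one member are high for another was examined over the 8 cows of a tissue, in 20 relations, with exact permutation tests and Benjamini-Hochberg adjustment over the 20. Points are single arrays that share a slide, and each slide row holds only 4 cows, too few for a value within a row. In WBC, CD74 went with BOLA-DOB (Pearson r = 0.96, exact p = 4.96e-05, adjusted 9.92e-04, Spearman rho = 0.98, exact p = 3.97e-04, adjusted 7.94e-03). It also went with BOLA-DRA (r = 0.93, exact p = 3.97e-04, adjusted 3.97e-03, rho = 0.93, exact p = 2.23e-03, adjusted 0.0223). Without cows 841 and 846, which were farthest from the median of CD74, r was 0.95 for BOLA-DOB and 0.85 for BOLA-DRA. TAPBP followed less closely (r = 0.73, exact p = 0.0445, adjusted 0.178, rho = 0.81, exact p = 0.0218, adjusted 0.112), and TAP1 (r = -0.40, exact p = 0.338), TAP2 (r = -0.08, exact p = 0.803) and B2M (r = -0.12, exact p = 0.769) did not pass (adjusted 0.483 to 0.817). For BOLA-DMB r was 0.58 (exact p = 0.158, adjusted 0.263).

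In the endometrium CD74 went with B2M (r = 0.94, exact p = 1.51e-03, adjusted 0.0101, rho = 0.79, exact p = 0.0279, adjusted 0.112) and with BOLA-DRA (r = 0.87, exact p = 4.86e-03, adjusted 0.0243, rho = 0.79, exact p = 0.0279, adjusted 0.112). The adjusted p of the rank correlation did not pass for either. Without cows 718 and 833, r was 0.83 for B2M and 0.80 for BOLA-DRA. Across the tissues, no member's WBC level went with its endometrial level after adjustment, and CD74 gave r = -0.09 (exact p = 0.817, rho = -0.24, exact p = 0.582). TAP1 ran in opposite directions (r = -0.58, exact p = 0.126, rho = -0.76, exact p = 0.0368, adjusted 0.122), which did not pass.

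As a description, the genes other than members with the highest r with CD74 were listed among genes that every array of the tissue showed well above background. In WBC, among 16552 genes, these were the tetraspanin CD81 (r = 0.96), ENSBTAG00000001029 (0.96), ENSBTAT00000039197 (0.95), SIDT2 (0.94) and HUWE1 (0.93), and BOLA-DOB stood between the first and the second of them. In the endometrium, among 16478 genes, they were TC406716 (0.97), the non-muscle myosin heavy chain MYH9 (0.97), ENSBTAG00000019915 (0.97), TC477894 (0.97) and the actin-severing protein gelsolin, GSN (0.96). Each of these r is the top of a long ranking over only 8 arrays and carries no test. Further members stood lower in the same rankings. In WBC, BOLA-DRA stood at rank 6 and BOLA-DMB at rank 1052. In the endometrium, B2M stood at rank 19, BOLA-DRA at rank 111 and BOLA-DMB at rank 1959.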

How the data were processed

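WBC and endometrium of 8 cows were measured on 16 one-colour Agilent 8x60K arrays, 1 per sample, and grouped by tissue and status from the labels. The authors deposited unnormalized spot intensities, with background estimates and quality marks, read by Agilent Feature Extraction 10.10.1.1 per the submitters' processing notes, and a second table of quantile-normalized intensities on a linear scale. From the scanner files, the median signal of 52689 spots per array was taken without background correction. Control spots and outlier spots were left out, log2 values were quantile-normalized over the 16 arrays and spots of a probe averaged. The genome build named in the file headers is HGSC Btau_3.1. RefSeq's table of a later assembly was used for gene names and order only.

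SCE and healthy cows were compared on the 8 arrays of a tissue, and the tissues and the difference of the SCE effect in 1 model of 4 groups, with limma 3.58.1 (R 4.3.3; lmFit, treat with a fold of 1.2, Benjamini-Hochberg over all probes at 0.05). The fits were first tested on simulated arrays. Relations over cows used exact permutations in Python 3.11.15. Cow numbers come from the labels and pair the tissues, because both samples came from the same animal; the same cow's deviations from its group means correlated by -0.33 to 0.14 between tissues.

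All members were named, with the brightest probe (highest mean over 16 arrays) standing for a gene. From each pathway list, genes were named if they passed the unadjusted test between SCE and healthy cows, or were the 2 highest in each tissue among those that passed in both statuses, and the 5 genes most like CD74 were named per tissue. The members and lists were chosen with earlier results of these data known. Alternatives were quantile normalization within each tissue, normexp on the mean signal (offset 50), processed signals scaled to the 75th percentile, the authors' normalized values, a filter on dim probes, a threshold of 0, a trended and robust prior, the slide row or the cow as a block, a single fit over the 16 arrays, the mean of a gene's probes, and leaving out each cow. Probes named HLA-DMA and ENSBTAT00000027518 were added after the gene names of the files had been read. Array number limits the precision.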

Additional observations from a re-analysis of the deposited data

Results flagged for a closer look

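In 6 of 32 groups of 4 arrays (8 genes by 4 groups), 1 cow stood apart from the other 3, measured as its gap to the nearest cow over the range of the group, which was above Dixon's critical value for 4 samples. Chance alone flags about 1 in 20 groups on average. The 8 genes were read on the same arrays, and some of them rose and fell together over the cows. The flags are therefore not separate events, and their count cannot be weighed against this share. In WBC of healthy cows, cow 841 was the low value of BOLA-DMB (gap over range 0.986) and of CD74 (0.960) and the high value of TAP1 (0.965). In WBC of SCE cows, cow 846 was the high value of CD74 (0.853) and cow 833 the high value of TAP2 (0.894). In the endometrium of SCE cows, cow 833 was the high value of TAP1 (0.878), on 1 of the 3 TAP1 probes. The tissue differences of these genes passed the test without cow 841 (CD74 -3.73 and BOLA-DMB -3.70 in healthy cows) and without cow 833 (TAP1 -1.71 and TAP2 -1.20 in SCE cows).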

How the results depend on the processing

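Of 338 recomputed tissue differences that had passed (7 member genes, HLA-DMA and ENSBTAT00000027518, in both statuses), 334 kept their direction and passed again, and 4 kept their direction only, all under quantile normalization within each tissue: TAP1 (-0.55 and -0.37) and TAP2 (-0.30 and -0.59). B2M in healthy cows passed only with processed signals scaled to the 75th percentile (-1.25, limma TREAT adjusted p = 0.0197). Leaving out each cow in turn gave 7 of 8 genes passing as lower in both statuses, 19 to 20 of 24 probes in healthy and 19 in SCE cows, and 0 genes between SCE and healthy cows. With the cow as a replicate block, the same number of genes, 7, passed in each status, with 20 probes in healthy and 19 in SCE cows when the cow was a fixed term and 19 in each with duplicateCorrelation (consensus correlation -0.0611), and the block changed no call of a gene by its brightest probe. Of 287 recomputed SCE differences, 0 passed with or without adjustment, and 29 had the other sign. Tissue and slide cannot be told apart, with 4 cows a group the intervals of SCE differences span up to about 1 log2 unit on either side of 0, and signals of BOLA-DOB and BOLA-DMB probe 3 near background limit what can be said of them in the endometrium.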

Other observations

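Some chains of the MHC outside the members differed between cows far more than between tissues or statuses, with the same cows standing apart in WBC and endometrium. The probe named HLA-DQA1, which the array describes as a DQ alpha 5 chain, read 13.57 in WBC of healthy cow 877 and 13.39 in WBC of SCE cow 833, and 7.06 to 9.27 in WBC of the other 6 cows. In the endometrium it read 10.51 and 10.93 in these 2 cows and 5.49 to 6.35 in the others. BOLA-N, a class I heavy chain, read 5.88 in WBC and 5.97 in endometrium of cow 877. In the other cows it read 14.85 to 17.90 in WBC and 13.01 to 16.29 in endometrium, and SCE cow 836 was the next lowest in both. JSP.1, another class I heavy chain, was also lowest in cow 877, at 13.90 in WBC and 10.93 in endometrium. BOLA and BOLA-NC1 showed no such cow, with ranges of 18.53 to 19.16 and 17.54 to 18.49 in WBC.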
